A study of Homo sapiens with 4 samples.

Results

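Oxidative phosphorylation genes encode the nuclear subunits of the respiratory chain and the ATP synthase. They were taken as every gene that a probe set of the array names alone and whose symbol begins with NDUFA, NDUFB, NDUFC, NDUFS, NDUFV, UQCR, COX4 to COX8, ATP5F, ATP5M or ATP5P, or is an SDH subunit or CYC1, with pseudogenes left out. This gave 88 of 19775 genes, measured by 169 of 54675 probe sets. Of the 88 genes, 77 encode structural subunits, with 33 in complex I, 3 in complex II, 7 in complex III, 17 in complex IV and 17 in complex V. The symbol rule also took in 8 complex I assembly factors (NDUFAF1 to NDUFAF8) and 3 noncoding genes, which are not subunits and are described apart. A further 14 genes that fit the symbols have no probe set of their own in the annotation used, SDHB and NDUFS8 among them, and are not members here.

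The samples were Panc1 cells, a human pancreatic cancer line, grown in RPMI1640 with serum and given romidepsin plus tamoxifen, romidepsin alone or tamoxifen alone for 24 hours, or left untreated. Romidepsin is an inhibitor of histone deacetylases, and tamoxifen is a selective modulator of the oestrogen receptor. Each of the 4 conditions was read on 1 array, so there was no replicate check, no test was possible and every fold describes these arrays only.

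Complexes I to IV pass electrons from NADH and succinate to oxygen, and all of them but complex II pump protons across the inner mitochondrial membrane, and complex V uses the returning protons to make ATP. Most subunits are made from nuclear genes, imported and joined with a small set made from mitochondrial DNA, with the help of assembly factors. Several complex IV subunits exist as a broadly expressed form and a form restricted to tissues such as heart muscle or testis.

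The values are MAS5 signals on a linear scale, with each array scaled on its own. Signals under 66.4, the median of all probe sets other than controls, were set to that floor, and a gene was measured in a comparison where at least 1 of its arrays lay above it. Of the 88 genes, 81 lay above the floor on all 4 arrays, 4 on some arrays and 3 on none, and 76 were among the 4944 genes with the highest mean signal. The median over the 88 genes was 8035 in cells given both drugs, 9640 with romidepsin, 9984 with tamoxifen and 11422 in untreated cells. The ratio of actin signal at the 3′ end of the transcript to that at the 5′ end, a sign of RNA and labelling quality, was 1.73, 1.18, 1.39 and 1.21 on these arrays in the same order, and that of GAPDH lay between 1.03 and 1.07. The part of the actin ratio in the folds given here was not tested. Of 6 genes listed as markers for a duct carcinoma line, 4 to 5 were above the floor on each array, with KRT19 below it on all 4. The summed signal of the 6 was 38666 with both drugs, 61796 with romidepsin, 56104 with tamoxifen and 74062 without treatment. VIM, which is not specific to duct cells, and KRT18 carried most of that sum. VIM had 22486, 30473, 33023 and 38695 on the combination, romidepsin, tamoxifen and untreated arrays. KRT18 had 11344, 19644, 16359 and 25361, KRT8 had 4153, 10766, 6125 and 9154 and KRT7 had 202, 513, 523 and 780 on the same arrays, each over 2-fold lower with both drugs than untreated. EPCAM went the other way, with 475, 395, 71.9 and 64.3, at least 7.15-fold higher with both drugs than untreated, and the part of these markers in the members' folds was not tested. Of 11 markers of acinar, islet, immune, endothelial and muscle cells, 2 to 4 were above the floor, with a summed signal of 436 to 551 and no single marker above 136. Log2 folds of the 18 spike-in probe sets had an SD of 0.09 to 0.11 in the 5 comparisons, a technical spread that leaves out, at the least, differences between cultures. Over all genes, the median absolute difference of log2 folds between probe sets of the same gene was larger, at 0.22 to 0.29. Mean log2 folds of the spike-in probe sets over untreated were -0.29 with both drugs, 0.02 with romidepsin and -0.36 with tamoxifen. The spike-in scaling used below takes these shifts out. Whether it follows the amount of RNA per cell was not tested.

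Relative to untreated cells, cells given both drugs had 5 oxidative phosphorylation genes at least 2-fold higher and 10 at least 2-fold lower, of 85 measured. The arrays read bulk RNA, so that fewer cells with a transcript and less of it per cell cannot be told apart. The 10 lower genes were 6 complex I subunits, the complex III subunit CYC1, the c-ring genes ATP5MC1 and ATP5MC2 of complex V, and the assembly factor NDUFAF6. The 5 higher genes were the complex I subunits NDUFA2, NDUFA5 and NDUFB3 and the testis forms COX6B2 and COX7B2 of complex IV. Among all 13802 genes measured in this comparison, 19.8% were at least 2-fold higher and 14.4% at least 2-fold lower. The members' shares, 5.88% and 11.8%, were both under these, with the smaller share for the higher genes. At 1.5-fold, 10 members were higher and 21 lower, or 11.8% and 24.7%, beside 30.9% and 24.6% of all genes. Among 1538 genes with signals between the members' quartiles (3534 to 14890), 10.6% were at least 2-fold higher and 17.9% at least 2-fold lower. These are called genes of like signal below. Their range was set on all members together and holds 44 of the 88, so a single complex can lie partly outside it.

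**Figure D1:**
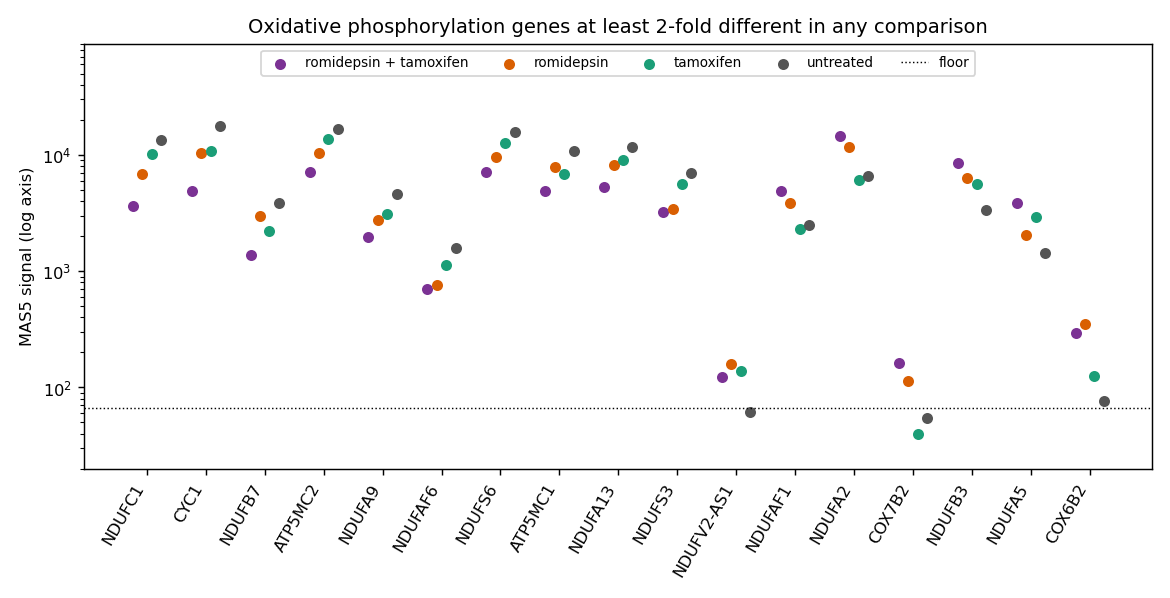
MAS5 signal (log axis) of the 17 oxidative phosphorylation genes at least 2-fold different in any of the 5 comparisons, 1 point per array, ordered from the genes lowest on the combination array relative to untreated to those highest. In the 10 genes at the left the combination point lies under the untreated point, from 3620 against 13485 for NDUFC1 to 3220 against 7004 for NDUFS3. NDUFV2-AS1, COX7B2 and COX6B2 lie near the floor (dotted line at 66.4).

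Promoters of nuclear oxidative phosphorylation genes are known for binding sites of NRF1, of ETS factors such as GABP, and of YY1, so promoters of called genes are shown with the matches found in them. They were chosen after the matches were seen, so that the split between those printed with and without a match is no result. The sequences are the 250 bases before the transcription start in RefSeq's annotation of GRCh38.p14, 5′ to 3′ on the gene's strand, and capitals mark each match to CGCATGCG (NRF1 core) or CCGGAAG (ETS and GABP core) on either strand. The first 6 belong to genes lower on the combination array, and the last 2 of these hold no match. NDUFS3 lies at chr11:47578824-47579073 on the plus strand, NDUFS6 at chr5:1801157-1801406 on the plus strand, NDUFB7 at chr19:14572067-14572316 on the minus strand, ATP5MC2 at chr12:53676084-53676333 on the minus strand, NDUFC1 at chr4:139302552-139302801 on the minus strand and ATP5MC1 at chr17:48892537-48892786 on the plus strand.
NDUFS3: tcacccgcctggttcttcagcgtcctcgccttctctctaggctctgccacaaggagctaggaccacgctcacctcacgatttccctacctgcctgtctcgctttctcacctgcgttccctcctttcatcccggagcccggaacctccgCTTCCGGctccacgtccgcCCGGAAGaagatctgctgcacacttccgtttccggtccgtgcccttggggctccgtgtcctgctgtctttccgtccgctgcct
NDUFS6: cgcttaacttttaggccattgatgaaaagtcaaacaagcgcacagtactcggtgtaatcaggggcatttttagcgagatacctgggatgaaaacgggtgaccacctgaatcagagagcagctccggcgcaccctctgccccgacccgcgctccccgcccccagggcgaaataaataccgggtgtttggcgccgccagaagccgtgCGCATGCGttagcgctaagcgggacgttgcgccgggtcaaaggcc
NDUFB7: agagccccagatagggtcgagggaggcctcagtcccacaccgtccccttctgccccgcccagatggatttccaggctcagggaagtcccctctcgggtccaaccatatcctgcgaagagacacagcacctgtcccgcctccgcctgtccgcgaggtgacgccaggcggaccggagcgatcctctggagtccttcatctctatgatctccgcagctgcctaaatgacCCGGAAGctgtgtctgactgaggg
ATP5MC2: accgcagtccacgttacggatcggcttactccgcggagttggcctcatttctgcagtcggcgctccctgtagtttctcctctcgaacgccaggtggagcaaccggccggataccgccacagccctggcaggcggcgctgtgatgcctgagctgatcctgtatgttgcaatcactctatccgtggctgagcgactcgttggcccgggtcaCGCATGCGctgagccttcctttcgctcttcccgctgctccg
NDUFC1: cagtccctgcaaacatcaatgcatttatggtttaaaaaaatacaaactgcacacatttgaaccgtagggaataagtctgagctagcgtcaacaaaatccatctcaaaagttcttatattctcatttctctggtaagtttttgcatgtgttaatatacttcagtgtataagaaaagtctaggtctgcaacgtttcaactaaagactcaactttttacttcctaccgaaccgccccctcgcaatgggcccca
ATP5MC1: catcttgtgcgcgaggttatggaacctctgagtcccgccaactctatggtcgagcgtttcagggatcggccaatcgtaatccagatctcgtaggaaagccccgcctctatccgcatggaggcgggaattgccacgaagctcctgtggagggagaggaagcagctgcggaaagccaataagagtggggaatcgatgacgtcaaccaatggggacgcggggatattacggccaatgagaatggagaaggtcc
The other 4 belong to genes higher on the combination array and hold no match. NDUFA5 lies at chr7:123601652-123601901 on the minus strand, NDUFB3 at chr2:201071751-201072000 on the plus strand, NDUFA2 at chr5:140647631-140647880 on the minus strand and COX6B2 at chr19:55354720-55354969 on the minus strand.
NDUFA5: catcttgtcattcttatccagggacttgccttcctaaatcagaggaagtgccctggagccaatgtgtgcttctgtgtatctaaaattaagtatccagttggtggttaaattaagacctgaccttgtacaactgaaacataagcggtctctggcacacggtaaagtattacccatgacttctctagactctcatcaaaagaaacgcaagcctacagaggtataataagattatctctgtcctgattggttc
NDUFB3: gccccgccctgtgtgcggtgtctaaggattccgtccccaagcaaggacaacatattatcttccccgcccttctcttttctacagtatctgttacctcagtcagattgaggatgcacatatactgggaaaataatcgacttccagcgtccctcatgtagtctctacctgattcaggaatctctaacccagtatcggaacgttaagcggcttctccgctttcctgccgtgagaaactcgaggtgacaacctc
NDUFA2: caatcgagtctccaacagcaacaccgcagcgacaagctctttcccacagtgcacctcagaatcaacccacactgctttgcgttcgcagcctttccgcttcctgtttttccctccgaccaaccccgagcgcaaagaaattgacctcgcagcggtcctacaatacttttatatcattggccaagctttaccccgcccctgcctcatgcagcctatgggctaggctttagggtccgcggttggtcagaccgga
COX6B2: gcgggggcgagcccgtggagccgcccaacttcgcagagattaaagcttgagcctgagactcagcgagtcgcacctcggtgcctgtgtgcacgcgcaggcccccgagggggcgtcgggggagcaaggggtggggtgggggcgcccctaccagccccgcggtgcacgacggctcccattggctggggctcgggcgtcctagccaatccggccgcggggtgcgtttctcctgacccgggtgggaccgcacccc

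The same cores and AAGATGGC (YY1 core), which can share the letters AAG with the ETS core, were counted on both strands over 300 bases, which add the 50 bases after the start to those printed. NDUFS3 held 2 ETS cores, NDUFB7 and NDUFA13 held 1 ETS core each, NDUFS6 and ATP5MC2 held 1 NRF1 core each and NDUFA9 held 1 YY1 core, while the windows of NDUFC1 and ATP5MC1 held none of the 3. Of the 65 structural subunits with a matched promoter, 32 held at least 1 core, or 49.2%, beside 19.3% of 15843 promoters of protein-coding genes. By core, NRF1 was found in 15.4% of subunit promoters beside 2.88% of protein-coding promoters, the ETS core in 27.7% beside 14.2%, and the YY1 core in 15.4% beside 3.91%. Split by the combination's fold over untreated, 9 of 15 subunits at least 1.5-fold lower, 0 of 5 at least 1.5-fold higher and 23 of 44 within 1.5-fold held a core. The share was thus 60% among the lower and 52.3% among the little changed genes. A match gives letters in a window and not a bound site.

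Complex I, which oxidises NADH, had the lowest median of the 5 complexes on the combination array over untreated, at -0.48 on the log2 scale over 33 subunits (3 at least 2-fold higher, 6 lower). These counts are 9.09% and 18.2% of the subunits, beside 19.8% and 14.4% of all genes and 10.6% and 17.9% of genes of like signal. The median of complex I was below 0 under each scaling of the arrays tried. It was -0.78 with arrays centred on their medians, -0.28 after quantile normalization and -0.19 with arrays scaled to the spike-in probe sets. Genes of like signal had medians of -0.15 as deposited and -0.45, -0.02 and 0.13 under these 3 scalings. Of the 33 subunits, 26 had a log2 fold below 0 as deposited. The share above 0 was 21.2%, beside 44.1% of genes of like signal and 54.0% of all genes.

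NDUFC1, a small accessory subunit of the membrane arm, had a signal of 3620 in cells given both drugs, 6853 with romidepsin, 10128 with tamoxifen and 13485 in untreated cells. The combination array was lowest and 3.73-fold below untreated, and both single drugs lay between. A second, dim probe set of NDUFC1 went the other way, with 233, 261, 141 and 109 on the same arrays, so the fall holds for the brighter probe set only.

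NDUFB7, an accessory subunit of the membrane arm, had 1365 in cells given both drugs, 2999 with romidepsin, 2226 with tamoxifen and 3868 in untreated cells, a 2.83-fold fall over untreated. NDUFB7 was also 2.20-fold lower on the combination array than with romidepsin alone, a difference that was under 2-fold with spike-in scaling, at -0.83 on the log2 scale. NDUFA9, which sits where the 2 arms of the complex meet, had 1953, 2730, 3081 and 4626 on the combination, romidepsin, tamoxifen and untreated arrays and fell 2.37-fold. In both genes the combination array was the lowest and the untreated array the highest.

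NDUFS3, a core subunit of the matrix arm, had 3220 in cells given both drugs, 3431 with romidepsin, 5577 with tamoxifen and 7004 in untreated cells. It fell 2.18-fold with both drugs and 2.04-fold with romidepsin alone, so the combination and romidepsin arrays were alike and tamoxifen lay nearer untreated. The fold for romidepsin alone was under 2-fold after quantile normalization, at -0.92 on the log2 scale, and when centred on genes of like signal, at -0.98. A probe set that the annotation gives to both PTPMT1 and NDUFS3 read 1931, 2665, 3623 and 4434 on the same arrays. NDUFS6, an accessory subunit of the NADH-oxidising module, had 7106, 9657, 12600 and 15885 on the combination, romidepsin, tamoxifen and untreated arrays, a 2.24-fold fall. NDUFA13, also known as GRIM-19, had 5283, 8239, 9017 and 11621 and fell 2.20-fold. Both genes followed the order of NDUFC1, with the combination lowest and each single drug in between. With spike-in scaling these 3 genes and NDUFA9 fell short of 2-fold, at -0.83 for NDUFS3, -0.87 for NDUFS6, -0.85 for NDUFA13 and -0.96 for NDUFA9 on the log2 scale.

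In the combination over untreated, 3 complex I subunits were at least 2-fold higher. NDUFA2, an accessory subunit of the NADH-oxidising module, had 14493 in cells given both drugs, 11734 with romidepsin, 6084 with tamoxifen and 6534 in untreated cells. The 2 arrays with romidepsin were high and the 2 without it were low, and the combination was 2.22-fold above untreated and 2.38-fold above tamoxifen. This rests on 1 probe set, since a dimmer probe set of NDUFA2 had 142, 148, 133 and 119 on the combination, romidepsin, tamoxifen and untreated arrays, and with arrays centred on their medians the log2 fold over untreated was 0.85. NDUFB3, an accessory subunit of the membrane arm, had 8488, 6355, 5569 and 3339 on the combination, romidepsin, tamoxifen and untreated arrays and rose 2.54-fold with both drugs. NDUFA5, an accessory subunit of the matrix arm, had 3858 in cells given both drugs, 2067 with romidepsin, 2925 with tamoxifen and 1436 in untreated cells. NDUFA5 rose 2.69-fold with the combination and 2.04-fold with tamoxifen alone, so that here the tamoxifen array stood above the romidepsin array. The tamoxifen call was lost with median centring, at 0.88 on the log2 scale.

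NDUFS4, an accessory subunit that is needed to complete the NADH-oxidising module, showed a difference between the drugs without a 2-fold call. Its signal was 3914 in cells given both drugs, 2681 with romidepsin, 5916 with tamoxifen and 3730 in untreated cells, with log2 folds over untreated of 0.07, -0.48 and 0.67 for the 3 treatments in that order. The tamoxifen array was the highest and the romidepsin array the lowest. NDUFS7, a core iron-sulphur subunit, and NDUFV3 were lower on both arrays with tamoxifen in their brightest probe sets. NDUFS7 had 2798, 4333, 2690 and 4153 and NDUFV3 had 3096, 4901, 2433 and 3659 on the combination, romidepsin, tamoxifen and untreated arrays, with log2 folds of the combination over romidepsin of -0.63 and -0.66. A second, dimmer probe set of NDUFV3 had 537, 498, 234 and 264 in the same order, highest with both drugs, so the order given for NDUFV3 holds for the brighter probe set only. NDUFA1, an accessory subunit of the membrane arm, had 22668, 24332, 27897 and 28342 in the same order. The 20 complex I subunits not named here had log2 folds of the combination over untreated from -0.94 to 0.30, with 17 of the 20 below 0, from -0.41 to 0.35 for romidepsin and from -0.63 to 0.15 for tamoxifen.

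**Figure D2:**
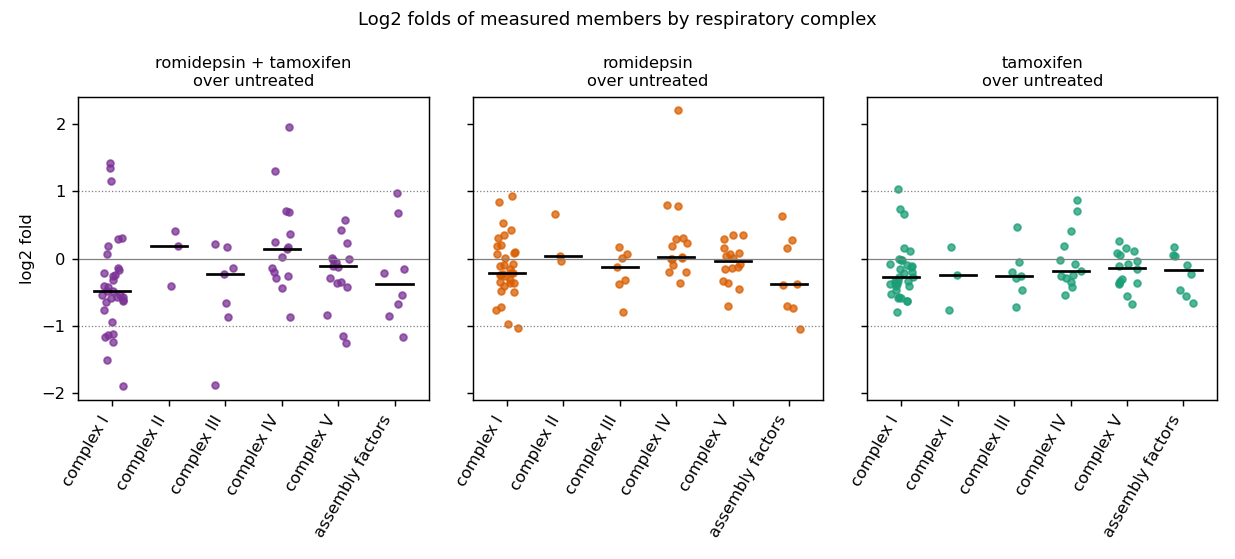
Log2 folds over untreated of each measured gene by complex, for romidepsin plus tamoxifen, romidepsin and tamoxifen, with the median as a bar and 2-fold limits as dotted lines. With both drugs complex I spreads from -1.90 (NDUFC1) to 1.43 (NDUFA5) around a median of -0.48. Complex IV, with its dim tissue-restricted forms included, has a median of 0.14.

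Complex II, succinate dehydrogenase, links the citrate cycle to the chain and does not pump protons. Its 3 measured subunits had no 2-fold difference in any comparison. In the combination over untreated, 19.8% of all genes were higher and 14.4% lower, and 3 subunits are too few to set beside these shares. SDHA, the flavoprotein that oxidises succinate, had 4014 in cells given both drugs, 4772 with romidepsin, 2545 with tamoxifen and 3018 in untreated cells, higher on the 2 arrays with romidepsin. SDHC, a membrane anchor, had 3269, 4449, 2533 and 4317 on the same arrays and was lower on the 2 arrays with tamoxifen. Its 7 probe sets disagreed, with log2 folds of the combination over untreated between -0.67 and 1.28. SDHD, the other anchor, had 6192, 5334, 6124 and 5448 on the combination, romidepsin, tamoxifen and untreated arrays, within 1.5-fold throughout.

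In complex III, which passes electrons from ubiquinol to cytochrome c, 1 of 7 subunits was called. For the combination over untreated this is 14.3% lower, beside 14.4% of all genes and 17.9% of genes of like signal. CYC1, the cytochrome that hands the electron on to cytochrome c, had 4859 in cells given both drugs, 10303 with romidepsin, 10826 with tamoxifen and 17769 in untreated cells. The combination array was the lowest and the untreated array the highest, with the single drugs close to each other. CYC1 fell 3.66-fold with the combination over untreated, 2.12-fold over romidepsin and 2.23-fold over tamoxifen, and the second of these was under 2-fold with spike-in scaling, at -0.78 on the log2 scale. The other 6 subunits had log2 folds of the combination over untreated from -0.87 to 0.22. The small subunits UQCRB, UQCRQ and UQCR11 had log2 folds of 0.22, 0.18 and -0.23. The median of the complex was -0.23 as deposited, and 0.06 with spike-in scaling.

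Complex IV, cytochrome c oxidase, passes electrons from cytochrome c to oxygen. Its median for the combination over untreated was 0.14 over 15 measured subunits as deposited, 0.25 after quantile normalization and 0.37 with spike-in scaling, but -0.14 with arrays centred on their medians. As deposited, 9 of the 15 log2 folds were above 0 and 6 below. The 9 include the dim, tissue-restricted COX4I2, COX6B2, COX7B2 and COX8C, at 0.69, 1.95, 1.30 and 0.36. These dim forms raise the median, and no median was taken without them. Of the 15 subunits, 2 were at least 2-fold higher and 0 were at least 2-fold lower in this comparison. The 2 higher are 13.3% of the subunits, beside 19.8% of all genes and 10.6% of genes of like signal. Lower were 14.4% of all genes and 17.9% of genes of like signal.

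Both higher genes are forms normally restricted to testis. COX6B2 had 295 in cells given both drugs, 350 with romidepsin, 125 with tamoxifen and 76.2 in untreated cells. The 2 arrays with romidepsin were the highest, and COX6B2 rose 4.59-fold with romidepsin and 3.87-fold with both drugs over untreated, and 2.36-fold with both drugs over tamoxifen. COX7B2 had 163, 114, 40.0 and 54.6 on the combination, romidepsin, tamoxifen and untreated arrays. The tamoxifen and untreated values lay under the floor, so the combination was at least 2.46-fold above each of them. COX8C, also known from testis, had 85.4, 81.2, 30.2 and 8.59 in the same order, above the floor on the 2 arrays with romidepsin only.

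The brightest probe sets of the broadly expressed partners of these forms were all within 2-fold of untreated. COX6B1 had 18489 in cells given both drugs, 21137 with romidepsin, 16716 with tamoxifen and 21290 in untreated cells, and COX7B had 22153, 19660, 22274 and 19589 on the same arrays. Their log2 folds of the combination over untreated were -0.20 and 0.18. A dim second probe set of COX7B differed, with 456, 321, 171 and 129 on the combination, romidepsin, tamoxifen and untreated arrays, a log2 fold of 1.82 for the combination. COX8A had 10818, 15323, 14806 and 19777 on the combination, romidepsin, tamoxifen and untreated arrays, a log2 fold of -0.87 for the combination over untreated, lowest with both drugs and highest without either.

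COX4I2, the form known from lung and from low oxygen, had 117, 126, 133 and 72.5 on the combination, romidepsin, tamoxifen and untreated arrays, with all 3 treated arrays above untreated by less than 2-fold. The muscle forms COX6A2 and COX7A1 were under the floor on all 4 arrays, and no fold is given for them. COX4I1, COX6A1 and COX7A2, their broadly expressed partners, had log2 folds of the combination over untreated of -0.29, 0.14 and -0.26. The 4 subunits not named here had log2 folds from -0.44 to 0.25. COX6C, a small subunit, had 19024, 13770, 15443 and 11683 on the combination, romidepsin, tamoxifen and untreated arrays, a log2 fold of 0.70 for the combination over untreated.

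**Figure D3:**
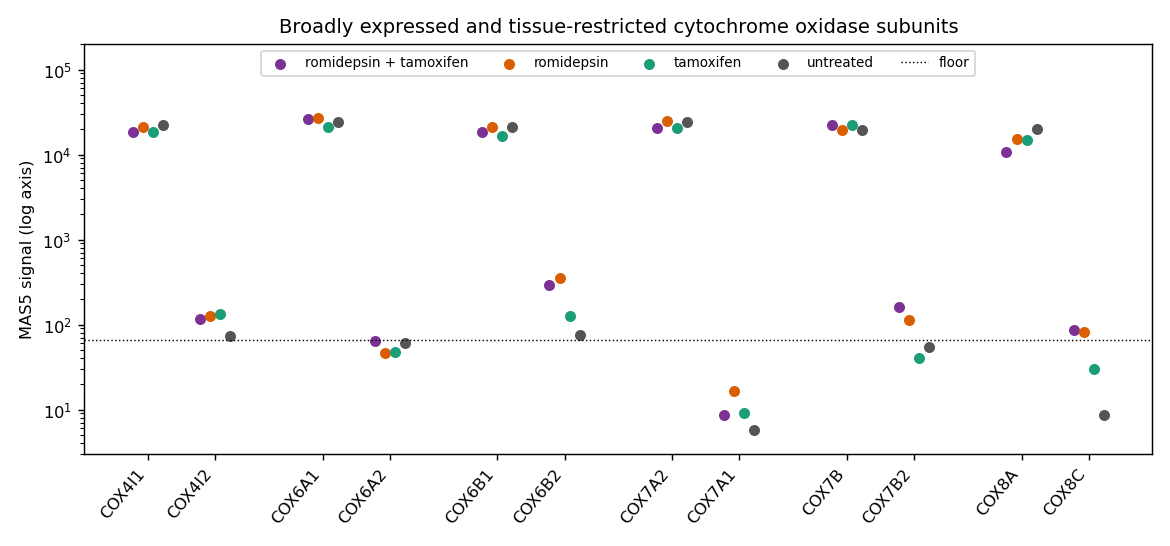
MAS5 signal (log axis) on the 4 arrays for 6 pairs of complex IV subunits, the broadly expressed form at the left of each pair and the tissue-restricted form at its right. COX6B2, COX7B2 and COX8C are higher on the 2 arrays with romidepsin than on the 2 without it, COX6A2 and COX7A1 stay under the floor (dotted line at 66.4), and the broadly expressed forms lie between 10818 (COX8A with both drugs) and 27066 (COX6A1 with romidepsin).

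In complex V, the ATP synthase, 2 of 16 measured subunits were called for the combination over untreated, both lower. The 2 are 12.5% of the subunits, beside 14.4% of all genes and 17.9% of genes of like signal lower. At least 2-fold higher were 0 subunits, beside 19.8% and 10.6%. ATP5MC1, ATP5MC2 and ATP5MC3 encode the same mature c-ring subunit with different import sequences. ATP5MC2 had 7090 in cells given both drugs, 10308 with romidepsin, 13636 with tamoxifen and 16819 in untreated cells, and fell 2.37-fold. ATP5MC1 had 4934, 7952, 6857 and 10916 on the same arrays and fell 2.21-fold. In both, the combination array was lowest and the untreated array highest. With spike-in scaling the log2 folds were -0.96 for ATP5MC2 and -0.86 for ATP5MC1, short of 2-fold.

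ATP5MC3 had 22514 in cells given both drugs, 25801 with romidepsin, 19037 with tamoxifen and 24395 in untreated cells, a log2 fold of -0.12 for the combination over untreated. A dim probe set of ATP5MC3 was higher with both drugs, with a log2 fold of 1.94, and the 2 bright probe sets of that gene were not. ATP5F1D, the delta subunit of the central stalk, had 4073, 8048, 4958 and 7253 on the combination, romidepsin, tamoxifen and untreated arrays, lower on the 2 arrays with tamoxifen and at a log2 fold of -0.98 for the combination over romidepsin. ATP5MJ, a small membrane subunit, had 19580, 16803, 13628 and 13155 and a log2 fold of 0.57 for the combination over untreated. ATP5F1B, the catalytic beta subunit, had 22895, 26842, 22876 and 29520 in the same order and a log2 fold of -0.37. The 10 other subunits measured had log2 folds of the combination over untreated from -0.43 to 0.43, and the probe set naming ATP5MF alone lay under the floor on all 4 arrays. A probe set that names both ARMC2-AS1 and ATP5MF read 10182, 14305, 13864 and 16836 on the combination, romidepsin, tamoxifen and untreated arrays, 1.65-fold lower with both drugs than untreated. The median of complex V was -0.12 as deposited and -0.41 with arrays centred on their medians, but 0.15 after quantile normalization and 0.17 with spike-in scaling.

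Among the 8 assembly factors, NDUFAF6 had 704 in cells given both drugs, 765 with romidepsin, 1137 with tamoxifen and 1578 in untreated cells. The 2 arrays with romidepsin were the lowest, and NDUFAF6 fell 2.24-fold with both drugs and 2.06-fold with romidepsin over untreated. A dim second probe set of NDUFAF6 did not show this, at a log2 fold of 0.11 for the combination over untreated. With spike-in scaling the combination's log2 fold of NDUFAF6 was -0.88, and centred on genes of like signal romidepsin's was just under 2-fold. NDUFAF1, part of an assembly complex for the membrane arm, had 4870, 3840, 2325 and 2478 on the combination, romidepsin, tamoxifen and untreated arrays and was 2.09-fold higher with both drugs than with tamoxifen alone, a difference under 2-fold with median centring, at a log2 fold of 0.92, and just under it with spike-in scaling. NDUFAF3 and NDUFAF8 had log2 folds of the combination over untreated of -0.67 and -0.86, and NDUFAF7, a methyltransferase acting on complex I, had 0.68. The 3 other assembly factors had log2 folds from -0.54 to -0.15, and the noncoding NDUFB2-AS1 and NDUFV1-DT had -0.01 and -0.11. The noncoding NDUFV2-AS1, named as antisense to NDUFV2, had 123, 158, 140 and 61.1 in the same order. Untreated cells lay under the floor, so NDUFV2-AS1 was at least 2.38-fold higher with romidepsin and at least 2.11-fold higher with tamoxifen. A second probe set of NDUFV2-AS1 had 144, 107, 83.8 and 34.3 on the combination, romidepsin, tamoxifen and untreated arrays, and with the median over the probe sets the log2 folds were 0.97 for romidepsin and 0.71 for tamoxifen, both short of 2-fold.

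With romidepsin alone over untreated, 2 of 85 measured members were at least 2-fold higher and 2 at least 2-fold lower, beside 14.3% and 9.27% of all genes, or 2.35% each of the members. These were COX6B2 and NDUFV2-AS1, higher, and NDUFAF6 and NDUFS3, lower. At 1.5-fold 8 members were higher and 9 lower, beside 26% and 19.3% of all genes. The median log2 fold was -0.08 as deposited, and 0.03 after quantile normalization. With tamoxifen alone, NDUFA5 and NDUFV2-AS1 were higher and 0 of 83 measured members were lower, beside 3.7% of all genes higher and 1.07% lower. At 1.5-fold 6 members were higher and 9 lower, beside 14.7% and 8.82% of all genes. The median was -0.21, and 62 of the 83 log2 folds were below 0 as deposited, but the median was 0.13 with spike-in scaling.

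In the combination over romidepsin alone, NDUFB7 and CYC1 were at least 2-fold lower and 0 members were at least 2-fold higher, of 84 measured, beside 2.27% of all genes lower and 4.07% higher. At 1.5-fold 1 member was higher and 8 were lower, beside 13.5% and 11.4% of all genes. The median log2 fold of this comparison was -0.19, and 0.11 with spike-in scaling. In the combination over tamoxifen alone, 4 members were at least 2-fold higher, COX6B2, COX7B2, NDUFA2 and NDUFAF1, and 2 were lower, CYC1 and NDUFC1, of 84 measured, beside 14.8% and 11.8% of all genes. At 1.5-fold 6 members were higher and 14 lower, beside 26.3% and 21.9% of all genes. As deposited, CYC1 was the member at least 2-fold lower in each of the 3 comparisons of the combination, while NDUFC1 reached -0.92 on the log2 scale over romidepsin and NDUFB7 -0.70 over tamoxifen.

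Each drug's fold can be read on separate arrays, without the other drug and with it. For romidepsin over untreated and the combination over tamoxifen, the log2 folds of the 81 members above the floor on all arrays had Pearson's r = 0.86 and Spearman's rho = 0.87, and 67 of 81 had the same sign, or 82.7%, beside 85.0% of all genes and 88.4% of genes of like signal. For tamoxifen over untreated and the combination over romidepsin, r was 0.75 and rho 0.77, and 71 of 81 had the same sign, or 87.7%, beside 74.9% and 82.8%. These are correlations across genes, which are not independent replicates and share the arrays' scaling, and no p-value is given. Of these 81 members, 0 were at least 1.5-fold higher in one reading of a drug and 1.5-fold lower in the other. Such opposite readings were rare in general. They were found in 23 of 11058 genes and 0 of 1538 genes of like signal for romidepsin, and in 30 and 1 for tamoxifen.

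**Figure D4:**
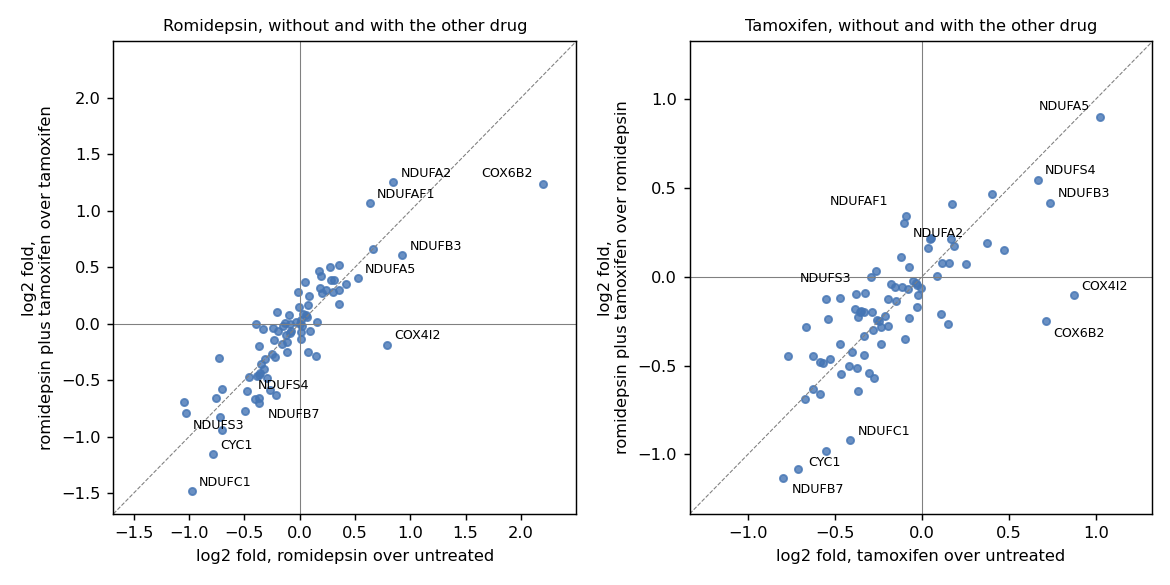
Log2 fold of each drug over cells without it, in the absence (x axis) and the presence (y axis) of the other drug, for the 81 members above the floor on all 4 arrays, with the line of equal folds dashed. Romidepsin's folds (left) and tamoxifen's folds (right) lie along the line for most genes, with COX6B2 and COX4I2 under it in both panels.

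The combination's log2 fold was set against the sum of the 2 single-drug log2 folds, all over the same untreated array. The difference, combination minus the sum, had a median of -0.003 and ranged from -0.98 for COX4I2 to 0.44 for NDUFAF1 over the 81 members, and 0 members departed by 2-fold or more in either direction. Over all 11058 genes above the floor, the median was -0.04, with 0.886% of genes departing upward and 2.23% downward by 2-fold or more. COX6B2 was next, at -0.96, and both it and COX4I2 had untreated signals close to the floor. In the same measure CYC1 and NDUFC1, the members with the largest falls, had -0.37 and -0.51.

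Of the 81 members, 31 were lowest on the combination array and highest in untreated cells, or 38.3%, beside 32.2% of genes of like signal and 23.1% of all genes. The opposite order, highest with both drugs and lowest untreated, was found in 6 members, or 7.41%, beside 18.4% and 20.2%. These shares move with the scaling, for the members and for other genes. The first order was found in 58.5% of members with arrays centred on their medians, beside 44.4% of genes of like signal and 32.3% of all genes. After quantile normalization it was 25.6%, beside 24.6% and 23.7%, and with spike-in scaling 13.8%, beside 14.3% and 10.2%. The members' share of the first order was thus close to that of genes of like signal under the last 2 scalings. The second order was found in 4.88% of members with median centring, beside 11.5% of genes of like signal and 13.7% of all genes, in 19.5% after quantile normalization, beside 22.8% and 18.8%, and in 23.8% with spike-in scaling, beside 28.8% and 30.5%.

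The median log2 fold of all members for the combination over untreated was -0.23 as deposited, beside 0.09 for all genes and -0.15 for genes of like signal, and it was -0.52 with arrays centred on their medians, -0.03 after quantile normalization and 0.06 with spike-in scaling. Under these 3 scalings the medians were -0.17, -0.01 and 0.34 for all genes and -0.45, -0.02 and 0.13 for genes of like signal. With the deposited folds centred on genes of like signal, the members' median was -0.075. The members' median minus that of all genes was -0.32 as deposited, -0.35 with median centring, -0.02 after quantile normalization and -0.28 with spike-in scaling. CYC1, NDUFB7, NDUFB3, NDUFA5, COX6B2 and COX7B2 kept a 2-fold difference in the combination over untreated under every alternative that gave them a value. After quantile normalization ATP5MC1, NDUFA13 and NDUFS6 were under 2-fold in that comparison, at log2 folds of -0.97, -0.94 and -0.93.

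**Figure D5:**
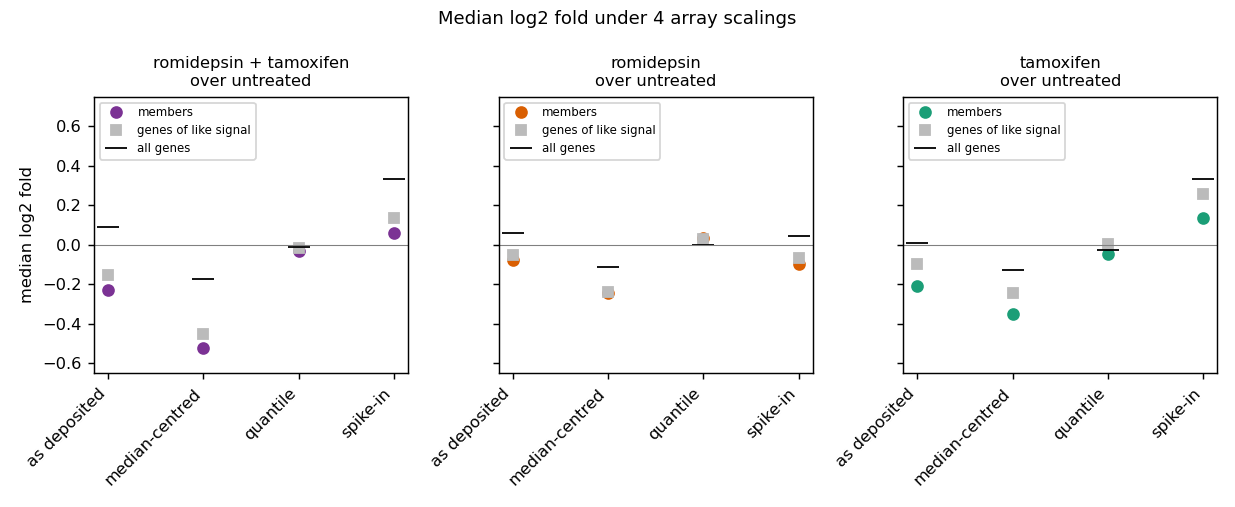
Median log2 fold over untreated under 4 scalings of the arrays, for the oxidative phosphorylation genes (circles), genes of like signal (squares) and all genes (bars), with 1 panel per treatment. In the combination the circles lie at -0.23, -0.52, -0.03 and 0.06 from left to right and below the bars in each scaling. The squares lie at -0.15, -0.45, -0.02 and 0.13 in the same order.

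Genes around the chain were read from lists drawn up by role. Of 47 assembly factors of the 5 complexes, the 8 members included, 46 were measured in the combination over untreated, with 2 at least 2-fold higher, 7 lower and a median log2 fold of -0.32. These are 4.35% and 15.2% of the factors measured, beside 19.8% and 14.4% of all genes. LYRM7, which helps insert the iron-sulphur protein of complex III, had 4788 in cells given both drugs, 2193 with romidepsin, 2087 with tamoxifen and 1125 in untreated cells, and SDHAF3, an assembly factor of complex II, had 1558, 1210, 653 and 447. ECSIT, an assembly factor of complex I, had 327, 596, 725 and 1241 on the combination, romidepsin, tamoxifen and untreated arrays, and COA4, UQCC1 and UQCC2 were also at least 2-fold lower.

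Of 12 regulators of mitochondrial gene expression, 11 were measured in the combination over untreated, with 0 at least 2-fold higher and 2 lower. The 2 lower are 18.2% of those measured, beside 14.4% of all genes, and 19.8% of all genes were higher. PPRC1, a coactivator of the PGC-1 family, had 144 in cells given both drugs, 321 with romidepsin, 802 with tamoxifen and 1136 in untreated cells. NRF1 had 196, 196, 417 and 534 on the same arrays, lower on the 2 with romidepsin. GABPA, the DNA-binding subunit of GABP, had 891, 416, 1247 and 568, higher on the 2 arrays with tamoxifen. PPARGC1A was under the floor on all 4 arrays.

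Of 15 measured citrate cycle genes, SUCLA2, DLD and IDH3A were at least 2-fold higher and SUCLG2 and IDH3G at least 2-fold lower in the combination over untreated. These are 20% and 13.3% of the list, beside 19.8% and 14.4% of all genes. Of 17 genes of electron carriers and coenzyme Q synthesis, ETFDH was higher and COQ2 and COQ9 were lower, and the median was 0.07. The calls are 5.88% and 11.8% of that list, beside the same shares of all genes. Among 4 single regulators of the complexes, 3 were measured in this comparison and HIGD2A was lower. Its signals were 4347, 5209, 7306 and 9744 on the combination, romidepsin, tamoxifen and untreated arrays. The 7 mitochondrially encoded subunits with a probe set of their own, of 13, had 0 calls at 2-fold in any of the 5 comparisons. Their median log2 fold was -0.03 for the combination over untreated. In that comparison 19.8% of all genes were higher and 14.4% lower, but 7 subunits are too few to set beside these shares. ATP6, COX1, COX2, ND2 and ND4 had signals of 20262 to 48499, and the highest signal on any array was 54778. Whether folds are smaller at such signals was not tested. The dimmer COX3 and ND6 had log2 folds of 0.28 and -0.78 for the combination over untreated.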

How the data were processed

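RNA of 4 Panc1 cultures was labelled from 100 ng with a 3′ IVT kit and read on 1 array each, per the labels' protocols. The authors deposited linear probe-set intensities from MAS5, as the submitters' processing notes name it. MAS5 scales every array alone, and the trimmed mean of the deposited signals was 500.1 on all 4.

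Each gene was represented by the probe set that names it alone and has the highest mean log2 signal, floored at 66.4 before log2 was taken. A gene was called at 2-fold, with 1.5-fold counts beside it. The members, the related lists and the comparisons were chosen with earlier results of these data known. Members were named if called in any comparison, if among the 6 largest folds each way of a comparison, if SDH genes, CYC1 or isoform pairs, or if brightest or dimmest of a complex. Up to 4 called genes each way were named from a related list. The alternatives changed the array scaling, the floor, the choice of probe set and the members counted. Promoters came from RefSeq's annotation of GRCh38.p14 and were matched by symbol to 75 of the 88 members.

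Python 3.11.15, numpy 2.4.6, pandas 2.3.3 and, for plots, matplotlib 3.10.9 were used. The steps were tested on simulated folds of romidepsin over untreated for 12505 genes. They called 0 of 50 genes at 1.5-fold, 49 of 50 at 2.5-fold, 50 of 50 at 4-fold and 0 of 12305 unchanged genes, with noise that leaves out variation between cultures. That noise was added to the untreated array and was small beside a 2-fold difference, so the 0 among unchanged genes follows from its size. Simulated folds were given only to genes well above the floor in untreated cells. The recovery thus does not cover calls near the floor, such as COX6B2 and COX7B2.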

Additional observations from a re-analysis of the deposited data

Results flagged for a closer look

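A probe set that names both NDUFC2-KCTD14 and NDUFC2, and so was outside the comparisons of members, was 2.01-fold higher in cells given both drugs than in untreated cells. Its signals were 462 with both drugs, 434 with romidepsin, 257 with tamoxifen and 229 in untreated cells. A brighter probe set with the same names had 13932, 15170, 11616 and 13991 on the combination, romidepsin, tamoxifen and untreated arrays, without such a difference. It was set apart because it carries a signal in data that no comparison of members used.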

How the results depend on the processing

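With 1 array per condition no array could be left out. No paired analysis was possible because each group holds 1 array and no replicate number is shared. A difference was taken as moved where it exceeded the SD of the spike-in folds, or 1.5 times for a count. Of the 29 calls of members, 26 stayed at 2-fold with arrays centred on their medians, 25 after quantile normalization, 19 with spike-in scaling, 21 with the median over probe sets and 22 when centred on genes of like signal, an alternative chosen after seeing the data. No called fold changed sign. Centred on medians, the median log2 folds were -0.52 for the combination over untreated, -0.20 for the combination over tamoxifen, -0.24 for romidepsin and -0.35 for tamoxifen, with 16 members lower in the combination over untreated, 4 lower over romidepsin and 1 higher with tamoxifen. After quantile normalization the medians over untreated were -0.030 for the combination, 0.033 for romidepsin, with 1 member lower, and -0.045 for tamoxifen. Scaled to spike-in probe sets, the medians were 0.060 for the combination over untreated, with 3 lower, 0.13 for tamoxifen, with 6 higher, and 0.11 for the combination over romidepsin, with 1 higher and 0 lower. A floor at the 25th percentile gave 4 members higher with romidepsin, and one at the 75th gave 0 with romidepsin, 1 with tamoxifen, 3 with the combination over untreated and 2 over tamoxifen. With the median over probe sets, 1 member was higher and 1 lower with romidepsin, 1 higher with tamoxifen and 1 lower in the combination over tamoxifen. Without probe sets that can match several transcripts, the combination over untreated had a median of -0.077 and 6 lower, and 1 was higher over romidepsin. Among structural subunits alone, 1 was higher and 1 lower with romidepsin and 1 higher with tamoxifen. Centred on genes of like signal, 0 were lower with romidepsin, and the medians were -0.075 for the combination over untreated and -0.028 over romidepsin, with 1 higher and 0 lower in the last. Median centring and spike-in scaling shift all folds of a comparison together by construction, apart from signals at the floor. Quantile normalization does not, and the cause of its differences and of the others was not tested. Signals near the floor limit what falls of dim genes can be seen.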

Other observations

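Some genes without a probe set of their own were read only by probe sets that carry other names too. A probe set that names NDUFS8 with the microRNA genes MIR7113 and MIR4691 had 5169 in cells given both drugs, 8684 with romidepsin, 8083 with tamoxifen and 12109 in untreated cells, 2.34-fold lower with both drugs than untreated. A second one had 3189, 5859, 6126 and 8834 on the same arrays and was 2.77-fold lower, while a dimmer one had 416, 280, 257 and 328. Both brighter probe sets followed the order seen in NDUFC1 and NDUFS6, lowest on the combination array and highest in untreated cells. A probe set shared by UQCRHL and UQCRH had 21262, 22545, 19836 and 21023 on the combination, romidepsin, tamoxifen and untreated arrays, and one shared by RPL10 and NDUFS5 had 19824, 19676, 24069 and 23908.

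Probe sets of a member did not always move together. Beside NDUFC1, the widest spans of log2 folds for the combination over untreated were those of ATP5MC3, from -0.12 to 1.94, SDHC, from -0.67 to 1.28, and ATP5F1C, from -0.17 to 1.73, and in each the dim probe set was the higher. These genes were chosen after their values were seen. Over the 31 members with a second probe set measured in that comparison, the median absolute difference between probe sets was 0.27, beside 0.29 for all genes.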
